A study of Mus musculus with 7 samples.

Results

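ISG15 is a small protein of the ubiquitin kind that cells make in response to interferon and attach to other proteins. The genes described here are the modifier and the enzymes that handle it in mouse: Isg15 itself, Uba7 (the E1 activating enzyme), Ube2l6 (the E2 conjugating enzyme), Herc6 (the main E3 ligase of the mouse) and Usp18 (the protease that removes ISG15). They were chosen by name for their place in the pathway, by a rule that uses no measured value, although earlier results of these data were known when they were chosen. All 5 were among the 21878 genes of the count table and among the 12997 genes with enough counts to be tested.

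The study measured polyadenylated RNA by stranded sequencing in tumours of B16F10, a pigmented melanoma line of C57BL/6 origin, grown in female C57BL/6J mice that were randomized to groups once tumours could be felt. The control group, named NC, has 3 libraries, and the group dosed orally with Zelnorm (1.25 mg/kg on alternate days) has 4 libraries, whose columns carry the letters MBZ, which the labels do not explain. Zelnorm is a trade name of tegaserod, an agonist of serotonin receptors of the HTR4 kind. The labels give no genetic change in either group, no age of the mice, no vehicle for the controls, and no link between libraries and individual mice, so p-values measure only the spread between these samples, which may be technical.

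In background, ISG15 conjugation runs in the same steps as ubiquitination. UBA7 activates the modifier with ATP, UBE2L6 carries it as a thioester, and a HERC ligase passes it to lysines of mostly newly made proteins. USP18 cleaves it off again, and also binds the interferon receptor subunit IFNAR2 and holds back signalling there. Type I interferon induces these genes through ISGF3, a complex of transcription factors that binds the interferon-stimulated response element (ISRE).

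Levels are given as CPM, the counts per 1e6 counts of the scaled library. Mean transcript levels of all 5 genes were higher in the Zelnorm tumours than in the controls, with fitted folds from 1.52 (Herc6) to 2.06 (Isg15). None passed the adjusted threshold of 0.05 in edgeR's quasi-likelihood test with Benjamini-Hochberg adjustment over all genes, and in that test 4 genes of the whole table, 0.0308% of those tested, were called higher. At an unadjusted p under 0.05, 5 of 5 were higher, against 6.94% of all genes tested. For 4 of 5, every Zelnorm library lay above every NC library, which held for 5.33% of all genes tested. DESeq2, a second count test, called 2 of 5 higher (Isg15 and Uba7), against 1.42% of the genes to which it gave an adjusted p. By limma voom 0 of 5 were called, and only 3 genes of the whole table were called higher. The median log2 fold change of the 5 was 0.82, and that of all genes tested was 0.00.

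**Figure D1:**
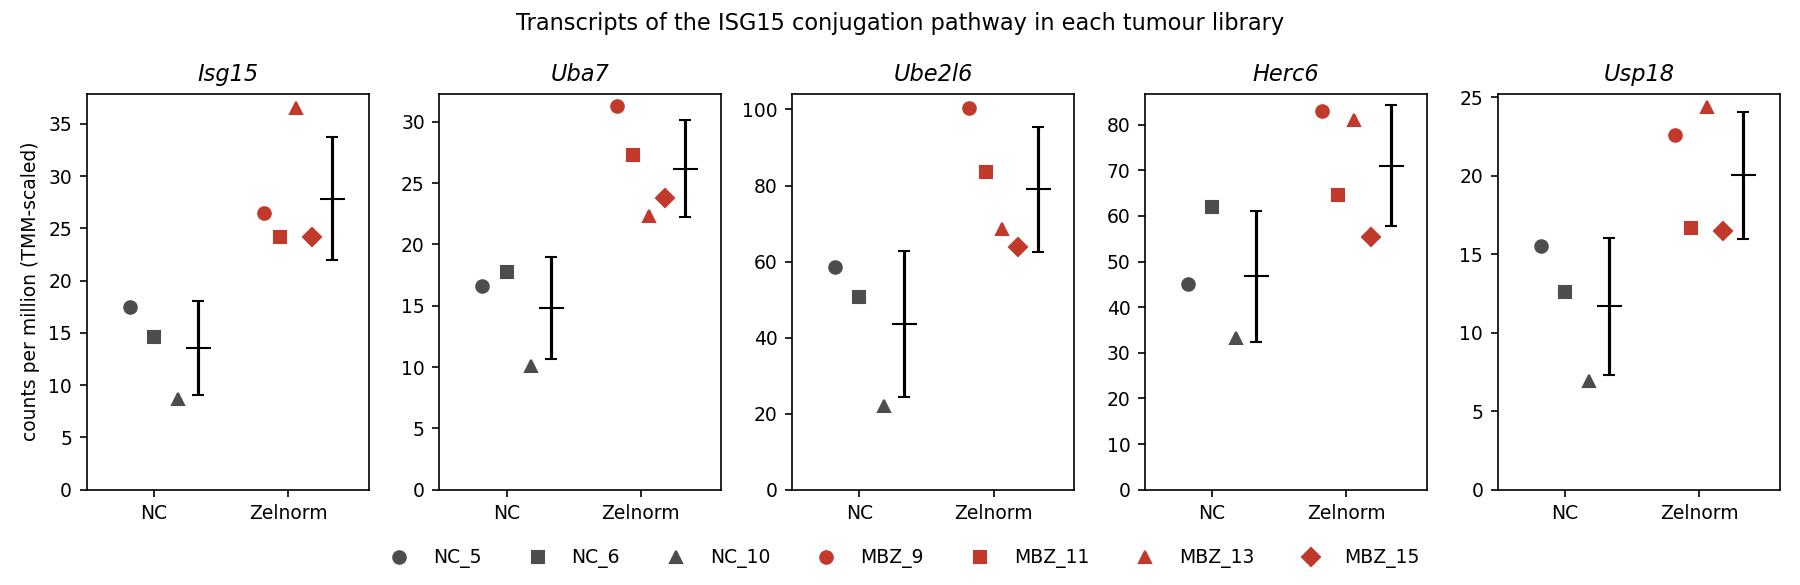
Level of each gene in CPM (vertical axis from 0, linear) in the 3 NC and 4 Zelnorm libraries, with 1 point per library and a bar at the group mean with its SD. The library NC_10 is lowest for every gene, and only for Herc6 does a Zelnorm library (55.4 CPM) fall below an NC library (61.9 CPM).

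The modifier comes first. Isg15 (GeneID 100038882) lies on the minus strand of chromosome 4, at positions 156199424 to 156200818 of GRCm38. Its promoter is shown because it holds the element that interferon signalling is known to act on, and because the genes with a listed promoter, all but Usp18, differ in this feature. The printed stretch covers the 150 bases before the start site at chr4:156200819-156200968, read 5′ to 3′ on the minus strand from the RefSeq promoter table of GRCm38.p6. Capitals mark 3 overlapping matches to GAAANNGAAA, the core of the ISRE, at -78 to -69, -72 to -63 and -66 to -57 from the start site.
Isg15: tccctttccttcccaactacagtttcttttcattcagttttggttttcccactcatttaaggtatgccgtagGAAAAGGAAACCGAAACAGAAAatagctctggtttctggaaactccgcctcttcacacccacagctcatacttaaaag
The motif was searched on both strands of each window of 250 bases before to 50 after a start, and 3.44% of 32851 such windows hold it.

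Isg15 had 17.4, 14.6 and 8.65 CPM in NC_5, NC_6 and NC_10. In the Zelnorm libraries it had 26.5 CPM in MBZ_9, 24.2 in MBZ_11, 36.5 in MBZ_13 and 24.2 in MBZ_15. The groups did not overlap, and the lowest Zelnorm library stood 6.72 CPM above the highest control. The means were 13.6 ± 4.49 CPM (SD, n = 3) and 27.8 ± 5.88 CPM (SD, n = 4). The log2 fold change was 1.04 ± 0.22 (SE), with a 95% confidence interval of 0.55 to 1.53. The edgeR quasi-likelihood p was 0.000758, adjusted to 0.152, and it ranked 60 among the 12997 genes tested. DESeq2 gave an adjusted p of 0.000329. Behind these levels stood 171 to 322 counts per control library and 408 to 649 counts per Zelnorm library.

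Uba7 (GeneID 74153) encodes the E1, which is specific to ISG15, at positions 107975567 to 107984056 on the plus strand of chromosome 9. Its window has no ISRE match but holds the shorter letters AANNGAAA, the core bound by interferon regulatory factors, which lie within every ISRE match too and occur in 23.9% of all windows. The match, in capitals, is on the reverse strand at -27 to -20. It is shown with its flanks at chr9:107975529-107975558, plus strand, from the same RefSeq table.
Uba7: actcagtctagTTTCACTTttggtttcctg
GENCODE M21 starts the gene 62 bases further upstream than RefSeq does, so that by GENCODE this stretch lies within the transcript.

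Uba7 had 16.6, 17.8 and 10.1 CPM in NC_5, NC_6 and NC_10. It had 31.2 CPM in MBZ_9, 27.3 in MBZ_11, 22.3 in MBZ_13 and 23.8 in MBZ_15. Again no library of one group reached into the other, with a gap of 4.57 CPM, and the order of the Zelnorm libraries differed from that of Isg15: MBZ_13 was highest for Isg15 and lowest for Uba7. The mean was 14.8 ± 4.16 CPM in NC (SD, n = 3) and 26.2 ± 3.97 CPM in Zelnorm (SD, n = 4). The log2 fold change of 0.82 ± 0.18 (SE; 95% interval 0.41 to 1.23) had an edgeR quasi-likelihood p of 0.00112, an adjusted p of 0.152 and rank 90. DESeq2 gave it an adjusted p of 0.00225.

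Ube2l6 (GeneID 56791), at positions 84798828 to 84810003 on the plus strand of chromosome 2, encodes the E2. Its levels in NC_5, NC_6 and NC_10 were 58.4, 50.6 and 21.9 CPM. In MBZ_9, MBZ_11, MBZ_13 and MBZ_15 they were 100.3, 83.5, 68.6 and 63.8 CPM. The groups were apart by 5.35 CPM, and NC_10 stood far below the other controls. The means were 43.7 ± 19.2 CPM (SD, n = 3) and 79.0 ± 16.5 CPM (SD, n = 4). The log2 fold change was 0.86 ± 0.28 (SE; 95% interval 0.25 to 1.47), with an adjusted p of 0.308 in edgeR's quasi-likelihood test and of 0.390 in DESeq2.

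Herc6 (GeneID 67138) spans 57580992 to 57665136 on the plus strand of chromosome 6. In mouse this ligase takes the part that HERC5 has in human cells. Its levels were 45.2, 61.9 and 33.3 CPM in NC_5, NC_6 and NC_10. They were 82.9 CPM in MBZ_9, 64.5 in MBZ_11, 81.1 in MBZ_13 and 55.4 in MBZ_15. This was the only gene of the 5 whose groups overlapped, since MBZ_15 lay 6.46 CPM below NC_6. The mean was 46.8 ± 14.3 CPM in NC (SD, n = 3) and 71.0 ± 13.3 CPM in Zelnorm (SD, n = 4). Its log2 fold change was the smallest of the 5, 0.60 ± 0.20 (SE; 95% interval 0.17 to 1.04), with an adjusted p of 0.316 by edgeR's quasi-likelihood test and 0.370 by DESeq2.

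Usp18 (GeneID 24110) is on the same chromosome at positions 121245906 to 121270917, plus strand. It encodes the protease that is specific to ISG15 and a brake on the type I interferon receptor. It had 15.5, 12.6 and 6.93 CPM in NC_5, NC_6 and NC_10, and 22.6, 16.6, 24.4 and 16.5 CPM in MBZ_9, MBZ_11, MBZ_13 and MBZ_15. The groups were separated by only 0.962 CPM, between NC_5 and MBZ_15. The means were 11.7 ± 4.38 CPM (SD, n = 3) and 20.03 ± 4.06 CPM (SD, n = 4). The log2 fold change was 0.78 ± 0.24 (SE; 95% interval 0.24 to 1.32), with an adjusted p of 0.296 in edgeR's quasi-likelihood test and of 0.0508 in DESeq2. Thus the gene that makes the modifier, the 3 enzymes that attach it and the protease that removes it were all higher in mean.

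The size of these differences rested in part on the control NC_10, which was the lowest library for 5 of 5 genes. Without it, the log2 fold change was 0.80 for Isg15, 0.60 for Uba7, 0.53 for Ube2l6, 0.41 for Herc6 and 0.51 for Usp18, so that all 5 kept a positive sign, and 157 genes of the whole table were called higher in place of 4. Annotated neighbours overlap 3 of the 5 genes in GENCODE M21 (Gm20661 on Uba7's strand, Gm45193 on Herc6's strand and Gm19244 opposite, Gm44148 opposite Usp18), and the strand setting of the counting is not given in the sources used here, so that some of those counts could belong to the neighbour.

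Levels of different genes can be compared only per length, here as CPM per kb of the transcript that the table's identifiers name. In the controls Ube2l6 stood highest at 27.99 ± 12.3 CPM per kb (SD, n = 3). Isg15 followed at 17.9 ± 5.93, Herc6 at 9.82 ± 3.01, Usp18 at 6.60 ± 2.47 and Uba7 at 4.64 ± 1.30 CPM per kb (SD, n = 3 each). The Zelnorm means had the same order, at 50.7 ± 10.5, 36.8 ± 7.78, 14.9 ± 2.79, 11.3 ± 2.29 and 8.19 ± 1.24 CPM per kb (SD, n = 4 each). The E2 and the modifier were thus the most abundant transcripts and the E1 the least abundant. Between libraries the ranges of each pair of neighbours overlapped in both groups, except Isg15 and Herc6 in the Zelnorm group. Within a library the order of neighbours held in 7 of 7 libraries, save that Isg15 exceeded Ube2l6 in MBZ_13 (48.3 against 44.0 CPM per kb).

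The 5 genes shared much of their pattern over the libraries. Averaged over the 5, the distance from the NC mean on the log2 scale was 0.33 in NC_5, 0.28 in NC_6 and -0.61 in NC_10. It was 1.06 in MBZ_9, 0.78 in MBZ_11, 0.96 in MBZ_13 and 0.63 in MBZ_15. As a description over 7 libraries that share depth and group, Pearson's r between pairs of the 5 ran from 0.858 (Ube2l6 and Herc6) to 0.969 (Uba7 and Ube2l6). With the group means removed, r ran from 0.524 for Isg15 with Uba7 to 0.961 for Uba7 with Ube2l6, and was 0.951 for Isg15 with Usp18. The modifier and its protease had their highest library in common, MBZ_13, and the E1, the E2 and the E3 theirs, MBZ_9. Whether any 2 of the genes differed in the size of their change was tested on the log2 ratio within each library. In 0 of 10 pairs did the ratio differ between groups at the 0.05 threshold, and the smallest value was for Isg15 over Usp18, a difference of 0.24 ± 0.11 (SE) with an exact permutation p of 0.0857 (2-sided, adjusted 0.714 over the 10 pairs). For Isg15 over Herc6, which have the largest and the smallest fold change of the 5, the ratio differed by 0.44 ± 0.23 (SE; exact permutation p = 0.143, 2-sided, adjusted 0.714). The smallest p that 35 assignments allow is 0.0286, so that after adjustment over 10 pairs a few differing pairs could not pass the threshold. This outcome therefore does not show that the genes changed by equal amounts.

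The enzymes of ubiquitin conjugation offer a comparison within each library. Each gene was set against a relative with the same role: Ubb, which encodes ubiquitin, Uba1, the main ubiquitin E1, Ube2l3, the E2 closest to Ube2l6, Herc4, a ligase with the same domains, and Usp14, a protease of the proteasome. The relatives' own log2 fold changes lay between -0.09 (Usp14) and 0.01 (Ubb). On the log2 scale Isg15 stood at -6.28, -6.38 and -7.07 relative to Ubb in NC_5, NC_6 and NC_10, and at -5.62, -5.72, -5.10 and -5.63 in MBZ_9, MBZ_11, MBZ_13 and MBZ_15. The Zelnorm libraries were all above the controls, by 1.06 ± 0.27 (SE) in the mean. The same held for Uba7 over Uba1 (0.85 ± 0.19), Ube2l6 over Ube2l3 (0.97 ± 0.36) and Usp18 over Usp14 (0.91 ± 0.31). For these 4 pairs the exact permutation p was 0.0286 (2-sided), the smallest that 35 assignments of the libraries allow, and 0.0357 adjusted over the 5 pairs. Because the relatives differed little, these ratios largely restate the separation of the 4 genes given above and are no independent support for it. For Herc6 over Herc4 the libraries overlapped, and the difference of 0.68 ± 0.29 (SE) had an exact permutation p of 0.0857 (2-sided, adjusted 0.0857).

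**Figure D2:**
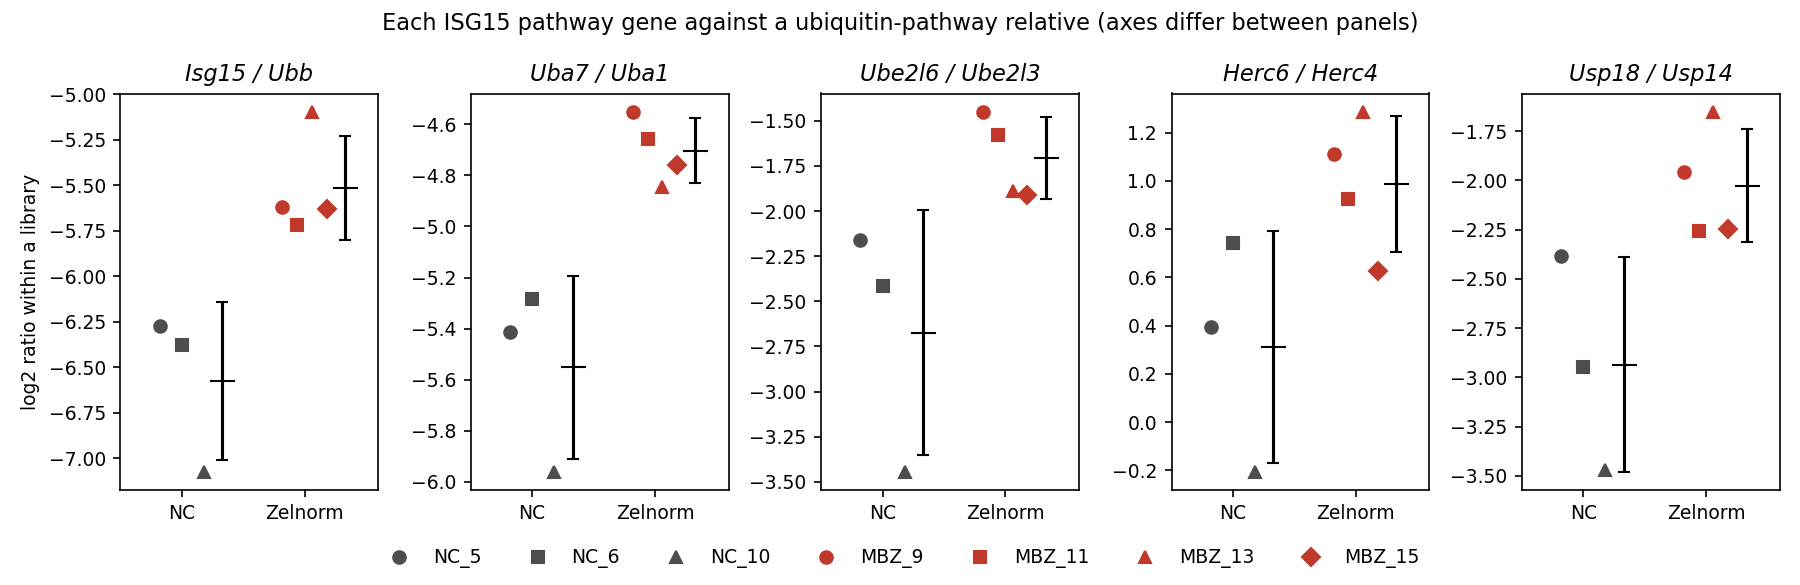
Log2 ratio of each ISG15 pathway gene to its relative in ubiquitin conjugation within each library (vertical axis), with 1 point per library and a bar at the group mean with its SD; the axes differ between panels and do not start at 0. In the panels for Isg15, Uba7, Ube2l6 and Usp18 all 4 Zelnorm points lie above the 3 NC points, and in the panel for Herc6 over Herc4 the points overlap.

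Other relatives in their place gave differences of the same sign. The log2 ratio was higher in Zelnorm by 0.79 for Uba7 over Uba6, which activates ubiquitin and FAT10, by 1.02 for Ube2l6 over Ube2d3, by 0.75 for Herc6 over Herc3 and by 0.84 for Usp18 over Usp5. With Herc3 the libraries no longer overlapped, yet the exact permutation p was 0.0571 (2-sided, adjusted 0.0571).

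In the wider families of these enzymes the median fold changes lay near 0. Of 15 genes of ubiquitin and its E1, E2 and E3 enzymes, 4 had a higher and 11 a lower mean, with a median log2 fold change of -0.05. At an unadjusted p under 0.05 in edgeR's quasi-likelihood test 0 of these 15 were higher and 3 were lower. Of all 12997 genes tested, 902 were higher and 439 lower at that p. Among the 3 was Ube2s, an E2 of mitotic ubiquitination (-0.13 ± 0.06, SE). None of the 3 had an adjusted p under 0.05 in edgeR or DESeq2. Among the 4 other HERC genes in the table, 0 had a higher mean than in the controls. Of 37 ubiquitin-specific proteases other than Usp18, 15 had a higher and 22 a lower mean, and their log2 fold changes lay between -0.17 (Usp33) and 0.20 (Usp25). Of 20 tested genes of the other ubiquitin-like systems (SUMO, NEDD8, UFM1, autophagy conjugation), 6 had a higher and 14 a lower mean and 0 had an unadjusted p under 0.05 in edgeR's test. The value farthest from 0 among their 4 smallest p was 0.20 ± 0.10 (SE) for Atg12, a ubiquitin-like protein of autophagy. Ubd, which encodes FAT10, had 3 to 25 counts per library and was not tested.

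**Figure D3:**
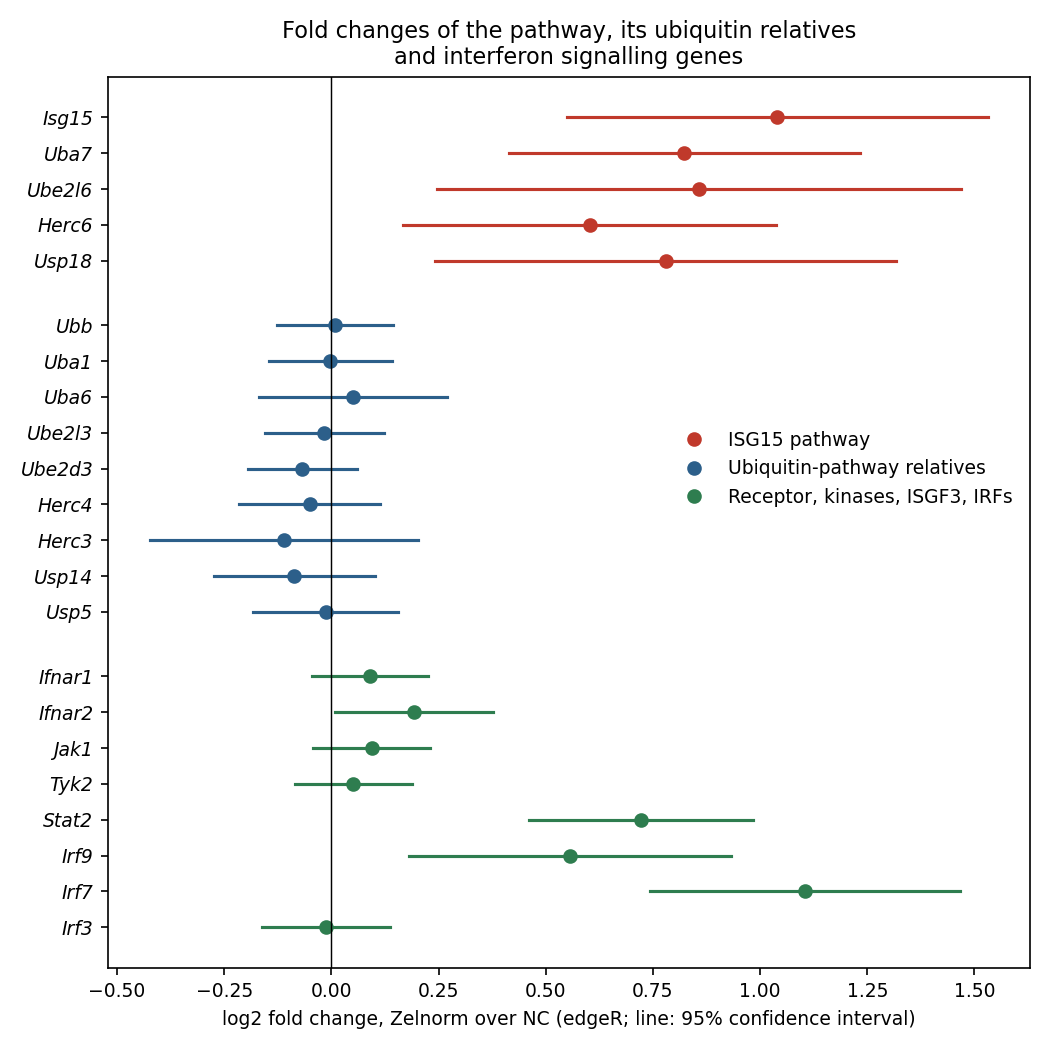
Log2 fold change of Zelnorm over NC (horizontal axis, points; lines are 95% confidence intervals from edgeR) for the 5 ISG15 pathway genes, relatives from the ubiquitin pathway, and the interferon receptor, kinases and transcription factors. The intervals of the 5 lie above 0, whereas those of the relatives shown include 0.

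Genes that work with ISG15 without being dedicated to it were mixed. Of 10 such genes 9 were tested, with 4 higher and 5 lower in mean and a median log2 fold change of -0.01. Trim25, an E3 ligase for RIG-I that is itself interferon-inducible and can act in ISG15 transfer, had 40.7, 36.5 and 32.3 CPM in NC_5, NC_6 and NC_10 and 63.1, 55.0, 75.4 and 48.7 CPM in MBZ_9, MBZ_11, MBZ_13 and MBZ_15. The groups did not overlap, and its log2 fold change was 0.73 ± 0.14 (SE), with an adjusted p of 0.115 in edgeR's quasi-likelihood test and of 9.01e-05 in DESeq2. Arih1, a ligase reported to join ISG15 in human cells, had 144.3 ± 11.5 CPM in NC (SD, n = 3) and 146.1 ± 3.18 CPM in Zelnorm (SD, n = 4). The proteases with some activity toward ISG15 had log2 fold changes of -0.13 (Usp21), -0.09 (Usp14), -0.08 (Usp16) and -0.01 (Usp5), and Usp13 had too few counts for a test. Skp2, which targets USP18 for degradation, stood at -0.02. Itgal and Itgb2 encode the chains of LFA-1, the receptor for free ISG15 outside cells, and are genes of leukocytes. Itgal was higher by 0.64 ± 0.23 (SE) and Itgb2 by 0.72 ± 0.20 on the log2 scale, with adjusted p of 0.362 and 0.234 in edgeR's quasi-likelihood test.

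Upstream of the pathway, the receptor and its kinases differed little and the transcription factors more. Ifnar1 had a log2 fold change of 0.09 ± 0.06 (SE), Jak1 0.09 ± 0.06, Tyk2 0.05 ± 0.06 and Irf3 -0.01 ± 0.07, and each 95% interval included 0. Ifnar2, the chain to which USP18 binds, stood at 0.19 ± 0.08 (adjusted p = 0.461, edgeR quasi-likelihood). Stat2 and Irf9, which encode subunits of ISGF3, were higher in mean and without overlap between groups. Stat2 went from 21.1 ± 2.29 CPM (SD, n = 3) to 34.8 ± 4.70 CPM (SD, n = 4), a log2 difference of 0.72 ± 0.12 (SE; adjusted p = 0.0646 in edgeR's quasi-likelihood test and 2.76e-05 in DESeq2). Irf9 differed by 0.56 ± 0.17 (SE), with an adjusted p of 0.295 in edgeR's test. Irf7, the factor that amplifies interferon-alpha genes, differed by 1.10 ± 0.16 (SE; adjusted p = 0.0559 in edgeR's quasi-likelihood test and 9.46e-08 in DESeq2).

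Transcripts of the interferons themselves were at or near the limit of the counts. Of the 19 interferon genes listed, 15 had 0 counts in all 7 libraries, the Ifna genes among them, and a count of 0 allows up to 3 counts, or 0.152 to 0.178 CPM depending on the library. Ifnb1 had 1 count in MBZ_9 and 0 elsewhere. Ifnk had 1 count each in NC_10 and MBZ_9, and Ifnl2 had 2 counts in MBZ_9. Ifng, the type II interferon of T and natural killer cells, had 5, 2 and 0 counts in NC_5, NC_6 and NC_10 and 6, 16, 3 and 3 counts in MBZ_9, MBZ_11, MBZ_13 and MBZ_15. A difference in interferon transcripts was not detectable at this depth, and none of the 19 had enough counts to be tested.

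Other interferon-stimulated genes were higher in mean as well. All 22 tested had a higher mean in Zelnorm, against 50.15% of all genes tested. At an unadjusted p under 0.05 in edgeR's test 20 were higher, against 6.94% of all genes. For 18, every Zelnorm library lay above every control, against 5.33%. The median log2 fold change of the 22 was 0.82. DESeq2 called 13 of them higher, against 1.42% of the genes to which it gave an adjusted p. By edgeR's adjusted test 0 of the 22 were called, against 0.0308% of all genes tested. Those with the smallest p were Oasl2 (1.18 ± 0.17, SE), Rtp4 (1.21 ± 0.20), Oas3 (1.28 ± 0.22) and Oas2 (1.38 ± 0.25), with adjusted p from 0.0559 to 0.0974 in edgeR's quasi-likelihood test. Oasl2 encodes a protein of the oligoadenylate synthetase family with ubiquitin-like domains at its end, Oas2 and Oas3 make the second messenger that activates RNase L, and Rtp4 encodes a chaperone of receptors. Of 19 tested genes whose proteins are known to carry ISG15, 11 had a higher and 8 a lower mean, with a median of 0.06. Among those with the smallest p were Trim25, Ifit1 (1.08 ± 0.23, SE) and Ddx58, which encodes RIG-I (0.74 ± 0.21), which are themselves interferon-inducible.

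By profile over the 7 libraries, the genes most like the mean of the 5 were named by the highest Pearson's r among the 11169 genes whose mean log2 CPM reached 1. In order they were Parp9 (r = 0.995), Mov10 (0.993), Dtx3l (0.993), Spsb2 (0.992), Parp12 (0.989), Parp14 (0.988), Tmem39b (0.986), Irf9 (0.986), Ifit3 (0.986) and Laptm4a (0.984). With group means removed their r ran from 0.955 (Laptm4a) to 0.987 (Parp9). Parp9 and Dtx3l encode a complex of an ADP-ribosyltransferase and a ubiquitin ligase, and Mov10 an RNA helicase. As a description of 7 libraries, these values carry no test.

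The letters before the start sites differed among the genes. Of the 5, 4 had an entry in the RefSeq promoter table, with none for Usp18. The ISRE core was found in the Isg15 window only, and not in those of Uba7, Ube2l6 and Herc6. Among other interferon-stimulated genes with an entry it was in 8 of 16, and among the ubiquitin-pathway relatives in 0 of 6. The shorter AANNGAAA was in Isg15 and Uba7, in 13 of 16 other interferon-stimulated genes and in 1 of 6 relatives. The letters TTCNNNGAA, the core of the gamma-activated site, were in 0 of 4 of the windows, against 8.3% of all windows. A match is only a match of letters, and its lack concerns these 300 bases alone.

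Transcripts of leukocytes were higher in mean in the Zelnorm group too, and, as background, both leukocytes and tumour cells can express interferon-stimulated genes. Of all genes tested, 50.15% had a higher mean in Zelnorm, and counts such as 6 of 10 or 2 of 3 below lie near this share. Of 15 genes found in all leukocytes 15 had a higher mean in Zelnorm, with summed levels of 593 to 675 CPM in NC and 653 to 906 CPM in Zelnorm. Of these sums Arhgdib alone held 310 to 374 CPM, with a log2 fold change of 0.07. Of 16 macrophage markers 16 had a higher mean, with sums of 269 to 538 and 515 to 748 CPM. All 8 monocyte markers were higher in mean (176 to 355 and 328 to 482 CPM), as were 13 of 13 tested T cell markers (36.2 to 38.8 and 48.0 to 68.2 CPM). Of the monocyte sum, Fn1 alone held 139 CPM in NC_5 and 372 CPM in MBZ_15. Thy1 is on both the T cell and the fibroblast list. Of the T cell sum it held 17.1 to 23.4 CPM in NC and 25.8 to 29.4 CPM in Zelnorm. Dendritic cell markers (8 of 10 higher) summed to 52.7 to 93.8 CPM in NC and 73.3 to 90.0 CPM in Zelnorm. Fscn1 held 33.4 to 67.3 CPM of this in NC and 46.7 to 53.6 CPM in Zelnorm. Natural killer markers (6 of 7 higher) summed to 8.90 to 12.4 and 11.7 to 29.3 CPM, and B cell markers (2 of 3) to 2.71 to 4.40 and 3.05 to 7.70 CPM. Plasmacytoid dendritic cell markers (5 of 6) summed to 169 to 224 and 257 to 355 CPM, of which most came from Bst2, itself an interferon-stimulated gene. For neutrophils (2 of 3), the defining Ly6g, Ngp and Camp had at most 3 counts in every library. Genes of melanocytes, which define B16F10, summed to 28977 to 32683 CPM in NC and 31084 to 33466 CPM in Zelnorm (10 of 13 higher, median log2 fold change 0.07). Fibroblast markers (11 of 11 higher) summed to 731 to 1899 CPM in NC and 1299 to 2521 CPM in Zelnorm. Skeletal muscle markers summed to 53.4 to 98.0 CPM in NC. In Zelnorm they summed to 73.5 CPM in MBZ_9, 216 in MBZ_11, 58.0 in MBZ_13 and 464 in MBZ_15, so that MBZ_9 and MBZ_13 lay within the NC range. Of those tested 13 of 13 were higher in mean, and for 0 of the 13 did every Zelnorm library lie above every control. Erythroid markers went the other way, with 0 of 5 tested higher in mean. Their sums were 187 to 234 CPM in NC and 96.8 to 226 CPM in Zelnorm. At an unadjusted p under 0.05 in edgeR's test 3 of the 5 were lower, against 439 of the 12997 genes tested. Endothelial markers (6 of 10 higher) summed to 590 to 651 and 567 to 689 CPM, of which Eng held 331 to 400 and 348 to 446 CPM. Adipocyte markers (8 of 8) summed to 58.6 to 153 and 43.5 to 374 CPM, and keratinocyte markers (2 of 3) to 6.47 to 7.53 and 4.60 to 27.4 CPM. No gene of these lists was at 0 in all libraries, and the part that each single cell type has in the ISG15 values was not tested. In bulk tumours fewer cells of a type and less RNA per cell cannot be told apart.

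In leukocyte level and in the mean of the 5 genes NC_5 stood above NC_6, whereas Uba7 and Herc6 were higher in NC_6. Whether leukocyte content contributes to the ISG15 differences was not tested. NC_10 had the highest leukocyte level of the 3 controls, a mean log2 CPM of 4.23 against 3.87 in NC_5 and 3.77 in NC_6, and the lowest mean of the 5 genes, 3.77 against 4.71 and 4.66. MBZ_13 had a leukocyte level of 4.16, below that of NC_10, with a mean of 5.34 for the 5 genes. The other Zelnorm libraries lay above all controls in leukocyte level. A fit with this level therefore hardly tells it and the treatment apart, and rests on where NC_10 and MBZ_13 lie. With the leukocyte level as a covariate in edgeR, the log2 fold changes were 1.66 for Isg15, 0.92 for Uba7, 1.10 for Ube2l6, 1.02 for Herc6 and 1.38 for Usp18. With the covariate and without NC_10 they were 1.28 for Isg15, 0.24 for Uba7, 0.07 for Ube2l6, 0.64 for Herc6 and 0.86 for Usp18, a setting chosen after seeing the data. None of these 10 values had an adjusted p under 0.05 in edgeR's test. Without NC_10 every Zelnorm library has a higher leukocyte level than both controls, so that the level and the treatment cannot be told apart there. With the skeletal muscle level as a covariate the values were 1.10, 0.79, 0.81, 0.79 and 0.84 in the same order of genes.

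**Figure D4:**
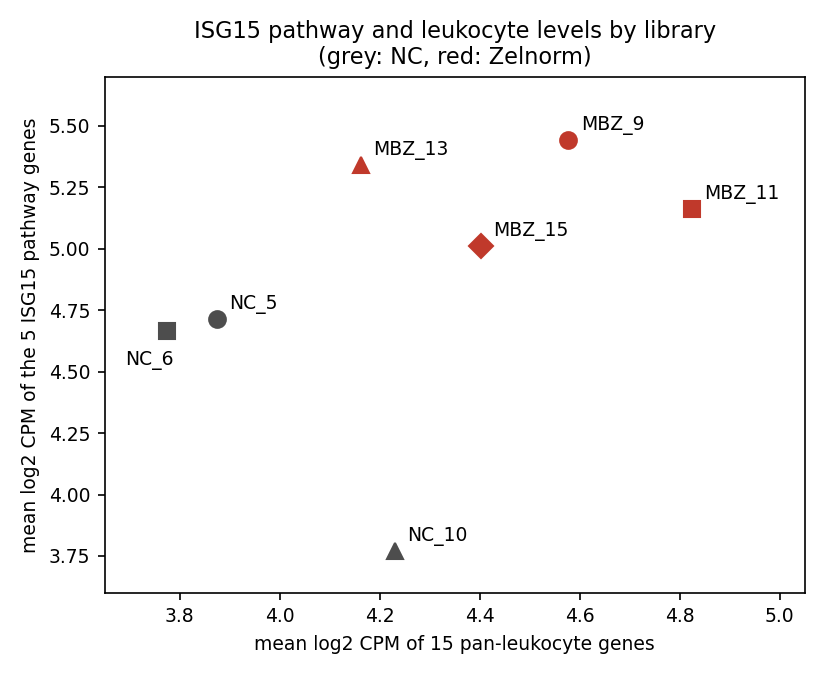
Mean log2 CPM of the 5 ISG15 pathway genes (vertical axis) against the mean log2 CPM of 15 pan-leukocyte genes (horizontal axis), with 1 named point per library. NC_10 lies lowest on the vertical axis at 3.77 with the highest leukocyte level of the controls, 4.23, and the 4 Zelnorm points lie between 5.01 and 5.44.

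Each library held between 16903598 and 19666598 counts, with scaling factors of 0.986 to 1.01. The chi-square per degree of freedom between pairs of libraries was 6.53 to 20.9, so that no library was a copy of another. The common biological coefficient of variation between libraries was 0.111. Over all genes, the unadjusted p of edgeR's test was under 0.05 for 902 that were higher and 439 that were lower, with 4 higher and 0 lower at the adjusted threshold, and 171 higher and 35 lower in DESeq2. Of all genes tested 805 had a log2 fold change at least as large as that of Herc6, the smallest of the 5.

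**Figure D5:**
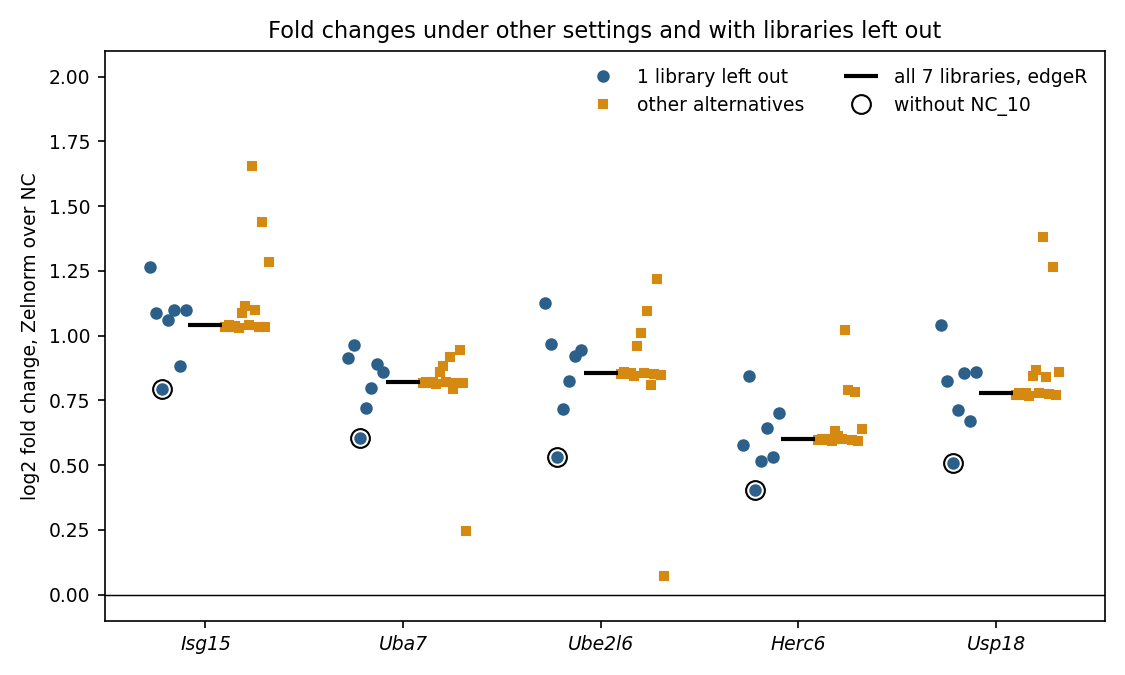
Log2 fold change of Zelnorm over NC (vertical axis) for each of the 5 genes (horizontal axis), with a black line for the edgeR fit of all 7 libraries, blue points for fits with 1 library left out, a ring around the value without NC_10, and orange squares for the other alternatives. All values lie above 0, and the lowest, 0.07, is Ube2l6 with the leukocyte covariate and without NC_10.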

How the data were processed

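The values are raw gene counts, deposited by the authors as 1 table for 7 libraries. TRIzol extraction and the TruSeq Stranded mRNA kit come from the labels' protocols. Trimmomatic, HISAT2, Cufflinks, HTSeq and DESeq, and the builds GRCh38 and GRCm38, are listed per the submitters' processing notes. For their versions and order, the annotation release and the strand setting: not given in the sources used here. Columns name a group but carry no replicate number of the titles, so each was assigned to its group alone. Symbols turned into dates were restored for 27 genes by identifier, and 21727 genes were found in the RefSeq table of GRCm38.p6.

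Genes were filtered with filterByExpr, scaled by TMM and compared with edgeR 4.0.16 (quasi-likelihood test, R 4.3.3) with Benjamini-Hochberg adjustment at 0.05 over the 12997 genes tested. The fit was checked on simulated data. Standard errors (SE) of fold changes follow from the F statistics, and CPM uses the scaled library size. Ratios and levels use log2 CPM with a prior count of 2, and ratios were compared with an exact permutation test over 35 assignments, 2-sided. The floor of 3 counts covers counting error only. Transcript lengths came from GENCODE M21.

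The genes, gene lists, tests and alternatives were chosen with earlier results of these data known. Named genes were the 5, their 10 relatives, all genes of the cofactor, receptor and interferon lists, up to 4 genes with the smallest p of each other pathway list, and the 10 most alike in profile. Ubd, Bst2, Arhgdib, Fn1, Thy1, Fscn1 and Eng, and the genes at the ends of a range, were named after their values were seen. Mx1 and Mx2 were not analysed here, and some genes that the rule names are not reported here.

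Alternatives were RLE and upper-quartile scaling, 2 other filters, removal of the 10 most abundant genes, DESeq2 1.42.0, limma 3.58.1 (voom, plain and with sample quality weights), edgeR with robust estimates, leukocyte and muscle covariates, removal of the 3 libraries with the most muscle transcripts, other prior counts and relatives, and leaving out each library. DESeq2 on the genes edgeR tested, and the leukocyte covariate without NC_10, were chosen after seeing the data. Plots were made in Python 3.11.15 with matplotlib 3.10.9.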

Additional observations from a re-analysis of the deposited data

Results flagged for a closer look

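In groups of 4 libraries, a library was singled out where its gap to the nearest other exceeded Dixon's critical value for the group's range, and 20 such groups were examined (the levels of the 5 genes, their ratios to relatives and the ratios of pairs). Chance alone picks about 1 in 20 groups. MBZ_13 stood apart in the log2 ratio of Isg15 to Ubb, at -5.10 against -5.62, -5.72 and -5.63 in MBZ_9, MBZ_11 and MBZ_15. MBZ_9 stood apart in the log2 ratio of Isg15 to Usp18, at 0.23 against 0.54, 0.58 and 0.55 in MBZ_11, MBZ_13 and MBZ_15, while the 3 controls lay between 0.16 and 0.32. The control group, with 3 libraries, was not examined in this way.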

How the results depend on the processing

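Of 120 fold changes and ratios recomputed with a test, 115 kept their direction and their side of the threshold, 5 passed the threshold that the edgeR fit of all libraries missed, and 0 changed sign. No fold change had passed at first, so a weaker one kept its side. With the robust fit the unadjusted edgeR p was 0.0697 for Ube2l6 and 0.055 for Herc6. With the leukocyte covariate it was 0.0506 for Ube2l6. With the covariate and without NC_10 it was 0.299 for Uba7, 0.780 for Ube2l6 and 0.0575 for Herc6. Another 35 ratios, with 1 library left out, had no test; all moved by less than 1 SD and kept their sign. Of 65 counts of genes or pairs, 19 moved by more than 1.5 times. With DESeq2 Isg15 (1.03, adjusted p = 0.000329) and Uba7 (0.81, adjusted p = 0.00225) passed, so that 2 of the 5 genes were called, and 171 genes were higher and 35 lower. On the genes edgeR tested, DESeq2 called 3 of the 5 (Isg15 at 1.03, Uba7 at 0.82, Usp18 at 0.77), with 181 genes higher and 35 lower. Counts of higher and lower genes were 29 and 5 with every gene that had a count, and 17 and 4 with the robust fit. The count of higher genes was 0 with the leukocyte covariate and 0 without the 3 libraries richest in muscle, and 3 genes were lower with the covariate and without NC_10. Leaving out 1 library in turn, 0 (without NC_5) to 157 (without NC_10) genes were higher and 0 to 4 lower, with 19 higher without MBZ_15, and 0 of the 5 genes were called in each case. The log2 fold changes then ran from 0.80 to 1.26 for Isg15, 0.60 to 0.96 for Uba7, 0.53 to 1.13 for Ube2l6, 0.41 to 0.84 for Herc6 and 0.51 to 1.04 for Usp18, lowest without NC_10. Without the 3 libraries richest in muscle only NC_6 and NC_10 were left against MBZ_9 and MBZ_13. The log2 fold changes were then 1.44 for Isg15, 0.94 for Uba7, 1.22 for Ube2l6, 0.78 for Herc6 and 1.27 for Usp18. Their adjusted p in edgeR's quasi-likelihood test ran from 0.476 to 0.999. No paired analysis was possible because the columns of the table carry no replicate numbers. The spread between 3 and 4 libraries limits the precision more than depth does, since each of the 5 genes had at least 137 counts in every library.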
